A study of Mus musculus with 24 samples.

Results

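The 24 mouse cortical tumours were ranked by their own level of Hoxa5, and the 8 tumours with the highest value were set against the 8 with the lowest, so that 16 of the 24 tumours entered the comparison. Hoxa5 was read from its 1 single-symbol probe set on the array. The groups were chosen by this measured value, so the Hoxa5 levels below are a description and were not tested. The question was which other transcripts went with Hoxa5, a gene that the cortex normally keeps silent, as a possible mark of tumour cells against the brain tissue around them.

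Each tumour was excised from the cortex and measured on 1 single-colour array, and each derived from cells that expressed 1 of 3 class genes: RAB3A, a small GTPase of synaptic vesicles; BC74C, which is not an approved gene symbol; or ZNF668, a zinc finger protein. The labels also give each tumour a type, which is ependymoma, HGG (not spelled out), TUMOR or UNKNOWN, and the titles begin with elw or mmr. They do not give strain, age, sex, the promoter used or whether tumours came from separate animals, so the p-values measure only the spread between these samples. The 8 Hoxa5-high tumours comprised 3 BC74C and 5 ZNF668 tumours and 0 RAB3A tumours, and the 8 Hoxa5-low tumours comprised 3 BC74C, 2 ZNF668 and 3 RAB3A tumours. By type, the Hoxa5-high tumours were 4 ependymoma, 2 HGG, 2 TUMOR and 0 UNKNOWN, and the Hoxa5-low tumours 2 ependymoma, 2 HGG, 0 TUMOR and 4 UNKNOWN. Those 4 are all the tumours of the series labelled UNKNOWN. Titles began with elw in 7 Hoxa5-high and 5 Hoxa5-low tumours. The class gene was a covariate of every fit unless stated. Since no RAB3A tumour was Hoxa5-high, the estimates rest on the BC74C and ZNF668 tumours, and the RAB3A tumours add only to the estimate of the spread.

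Hox genes encode homeodomain transcription factors that lie in 4 clusters, HoxA to HoxD, and give cells of the embryo their position along the head to tail axis. Genes at one end of a cluster are used as far forward as the hindbrain and those at the opposite end only farther back, while the forebrain, from which the cortex forms, develops with the clusters silenced by Polycomb proteins. Hox transcripts in a cortical sample are therefore out of place, and in human gliomas HoxA genes are known to be turned on in some tumours.

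The promoters of Hoxa2, Hoxa3, Hoxa5 and Hoxa7 are shown because their values were high in the same tumours, and that of Hoxa9 because it is the next gene after Hoxa7 and did not separate the groups. The sequences are RefSeq's (build GRCm38.p6), 300 bases each, from 250 before to 50 after the gene's start, on the minus strand of chromosome 6: chr6:52164782-52165081 for Hoxa2, chr6:52213018-52213317 for Hoxa3, chr6:52204538-52204837 for Hoxa5, chr6:52218524-52218823 for Hoxa7 and chr6:52227321-52227620 for Hoxa9. Capitals mark TAAT or its reverse complement ATTA, the core that homeodomains bind.
Hoxa2 promoter: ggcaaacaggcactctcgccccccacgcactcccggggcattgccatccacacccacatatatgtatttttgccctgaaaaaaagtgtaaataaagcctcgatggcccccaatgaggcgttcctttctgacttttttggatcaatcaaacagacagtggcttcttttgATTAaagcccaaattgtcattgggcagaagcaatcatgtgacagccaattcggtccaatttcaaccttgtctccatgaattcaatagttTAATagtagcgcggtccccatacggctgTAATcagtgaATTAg
Hoxa3 promoter: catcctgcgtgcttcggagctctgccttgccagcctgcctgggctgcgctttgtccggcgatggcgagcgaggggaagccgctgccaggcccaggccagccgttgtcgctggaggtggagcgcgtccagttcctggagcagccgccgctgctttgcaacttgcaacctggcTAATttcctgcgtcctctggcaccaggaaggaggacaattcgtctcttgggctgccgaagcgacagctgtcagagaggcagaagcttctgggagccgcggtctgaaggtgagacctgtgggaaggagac
Hoxa5 promoter: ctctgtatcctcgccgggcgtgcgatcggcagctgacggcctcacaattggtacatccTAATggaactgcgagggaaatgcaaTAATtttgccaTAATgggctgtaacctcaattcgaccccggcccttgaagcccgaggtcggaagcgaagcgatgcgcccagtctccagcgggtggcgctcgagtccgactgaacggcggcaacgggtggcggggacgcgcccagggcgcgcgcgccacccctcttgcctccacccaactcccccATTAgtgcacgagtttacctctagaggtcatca
Hoxa7 promoter: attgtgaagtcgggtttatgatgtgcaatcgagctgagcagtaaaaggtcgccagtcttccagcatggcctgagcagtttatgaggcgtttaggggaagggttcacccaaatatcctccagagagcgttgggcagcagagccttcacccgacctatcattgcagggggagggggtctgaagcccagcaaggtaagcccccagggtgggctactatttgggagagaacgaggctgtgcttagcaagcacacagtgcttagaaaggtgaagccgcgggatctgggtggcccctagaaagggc
Hoxa9 promoter: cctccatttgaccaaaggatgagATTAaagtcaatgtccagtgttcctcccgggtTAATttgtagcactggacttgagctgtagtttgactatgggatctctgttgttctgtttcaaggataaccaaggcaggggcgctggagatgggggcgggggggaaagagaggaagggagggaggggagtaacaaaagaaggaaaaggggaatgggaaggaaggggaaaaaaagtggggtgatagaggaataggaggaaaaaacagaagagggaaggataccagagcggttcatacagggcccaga
The core occurs 4 times in the Hoxa2 window, 1 time for Hoxa3, 4 times for Hoxa5, 0 times for Hoxa7 and 2 times for Hoxa9, and 58.0% of all 32851 promoters in the table hold at least 1. The longer motif TGATNNAT, searched on both strands and bound by Hox proteins with their Pbx partners, occurs 1 time in the Hoxa2 window and 0 times in the other 4, against 8.85% of all promoters. The dinucleotide CG, at which DNA is methylated, occurs 29 times in the Hoxa5 window, 20 times for Hoxa3, 9 times each for Hoxa2 and Hoxa7 and 4 times for Hoxa9, and its median over all promoters is 7. These matches describe the letters of the windows and are not binding sites.

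Values are log2 expression, on which 1 unit is a factor of 2, and a probe set's level cannot be set against another probe set's. Hoxa5, a factor of hindbrain, cervical cord and lung patterning, had values of 9.57, 9.29, 9.03, 9.03, 8.84, 8.65, 8.52 and 8.36 in the Hoxa5-high tumours. In the Hoxa5-low tumours it had 5.91, 5.84, 5.22, 4.36, 4.29, 3.87, 3.76 and 3.66. The group means were 8.91 ± 0.40 and 4.62 ± 0.92 (SD, n = 8 each). At the upper edge BC74C replicate 4 (8.36) lay just inside and ZNF668 replicate 7 (8.25) just outside. At the lower edge ZNF668 replicate 5 (5.91) lay just inside and BC74C replicate 3 (6.27) just outside, so the upper boundary falls where values are close together.

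Hoxa7, Hoxa2 and Hoxa3 were higher in Hoxa5-high tumours without overlap, as were 0.454% of all genes tested. Of 25 HoxB, HoxC and HoxD genes 0 separated the groups, beside 0.454% higher and 0.318% lower of all genes tested. Of 13217 genes tested, 325 were higher (2.46%) and 457 lower (3.46%) in Hoxa5-high tumours at an adjusted p under 0.05 (limma, two-sided, Benjamini-Hochberg), and of the 4 HoxA genes tested beside Hoxa5, 3 were called higher and 0 lower. Hoxa7, a factor of the trunk, had a lowest, median and highest value of 6.44, 7.78 and 8.55 in Hoxa5-high tumours and 3.38, 4.26 and 5.15 in Hoxa5-low tumours. The groups did not overlap, the log2 difference was 2.99 (SE 0.41) and the limma adjusted p was 0.00873. Hoxa2, the HoxA gene used farthest forward in the hindbrain, had 5.04, 6.74 and 7.03 in Hoxa5-high tumours and 2.69, 3.59 and 4.85 in Hoxa5-low tumours. These too did not overlap (difference 2.70, SE 0.38, limma adjusted p = 0.00873), although BC74C replicate 5, at 5.04, came near the highest Hoxa5-low tumour. Hoxa3, which patterns the hindbrain and pharyngeal arches, had 4.97, 5.37 and 5.79 in Hoxa5-high tumours and 3.28, 3.50 and 3.91 in Hoxa5-low tumours. Its difference of 1.85 (SE 0.15, limma adjusted p = 4.86e-05) is smaller than those of Hoxa7 and Hoxa2, but its values varied little within either group, and no gene tested had a smaller p. Its mean in Hoxa5-low tumours, 3.51, lay below 3.76, the mean under which genes were left out as low. Hoxa3 was thus tested only through its values in the other tumours, and its small spread and p are not read as strength.

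Hoxaas2, an antisense transcript that overlaps one end of Hoxa3 in RefSeq, had 4.16, 4.60 and 5.19 in Hoxa5-high tumours and 3.34, 3.71 and 4.13 in Hoxa5-low tumours. It also rose without overlap (difference 0.88, SE 0.18, limma adjusted p = 0.0297). Its mean in Hoxa5-low tumours, 3.760, likewise lay just below the filter on low values, 3.762. Hoxa4 had 3.69, 3.94 and 4.57 in Hoxa5-high tumours and 3.33, 3.61 and 3.73 in Hoxa5-low tumours, which overlapped, and its difference of 0.44 (SE 0.14) was not called (limma adjusted p = 0.0697). Over all genes, 60 (0.454%) were higher and 42 (0.318%) lower in Hoxa5-high tumours with no overlap. The 3 called HoxA genes and Hoxaas2 are among the 60.

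In RefSeq, Hoxa4, Hoxa5 and Hoxa6 lie within the span of Hoxa3, whose transcripts can start upstream of them, and 3 other probe sets named for Hoxa3 differed by 0.13 to 0.57 between the group means. What the Hoxa3 probe set reads is therefore less certain than its statistic: signal of an overlapping transcript and of Hoxa3 proper was not told apart here. Hoxa6 was not analysed here.

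Hoxa9, Hoxa10, Hoxa11 and Hoxa13, the genes of the far end of the cluster that pattern the limbs and the hind part of the trunk, lay between 2.91 and 4.16 in all 24 tumours. Their mean differences ran from -0.33 to 0.13. The 10 HoxB, 6 HoxC and 9 HoxD genes measured lay between 2.62 and 4.54 in all 24 tumours, with mean differences of -0.25 to 0.18, and 0 of these 25 genes separated the groups. That count is near the share over all genes tested (0.454% higher, 0.318% lower), so nothing particular to these clusters is read from it. Most of these 25 genes were below the filter on low values, so only 4 were tested and 0 called. A low value can also come from a probe set that responds poorly, since no sample with known HoxB to HoxD expression is among these arrays.

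**Figure D1:**
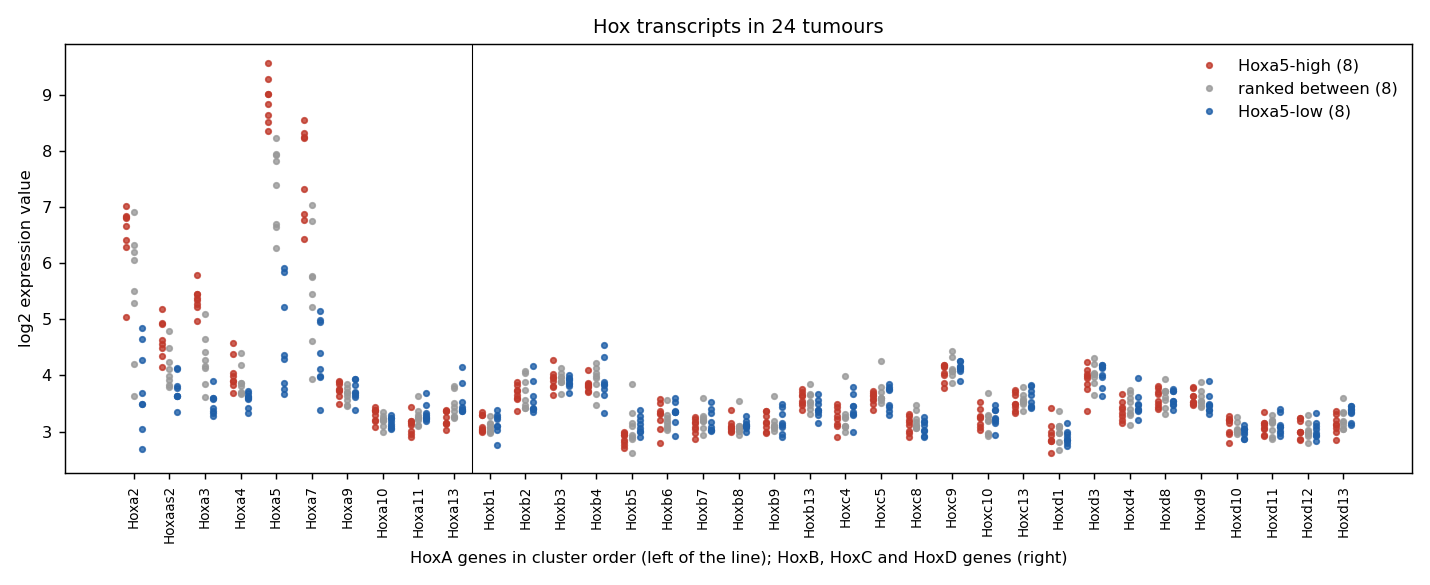
Log2 expression values (y axis) of each measured Hox gene and Hoxaas2 (x axis, HoxA in cluster order left of the line) in 24 tumours, 1 point per tumour, coloured by Hoxa5 rank. Hoxa2, Hoxaas2, Hoxa3 and Hoxa7 separate the 8 Hoxa5-high from the 8 Hoxa5-low tumours as Hoxa5, which set the ranking, does by construction, while Hoxa9 to Hoxa13 and the HoxB, HoxC and HoxD genes stay at or below 4.54.

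Within each class gene that had tumours in both groups Hoxa7, Hoxa2, Hoxa3 and Hoxaas2 had the same direction. Their values did not overlap between the whole groups, so any subset of these tumours must give that direction. The subsets below therefore describe only the size of the differences and are not separate support. Among the BC74C tumours (3 against 3) the difference was 3.32 for Hoxa7, 2.18 for Hoxa2, 1.73 for Hoxa3 and 0.70 for Hoxaas2. Among the ZNF668 tumours (5 against 2) it was 2.64, 3.24, 1.98 and 1.07 for the same genes in the same order. Among the 12 elw tumours alone the differences were 3.00, 2.85, 1.74 and 0.91, all called (limma adjusted p 0.00385 to 0.0354), with 480 genes higher and 647 lower. The mmr titles hold 1 Hoxa5-high and 3 Hoxa5-low tumours, too few for a fit of their own. The 8 tumours ranked between, which entered neither group, were described by a slope on the same Hoxa5 values, which ran only from 6.27 to 8.25 there. Per log2 unit of Hoxa5 the slope was 1.63, SE 0.47 for Hoxa2, 0.42, SE 0.24 for Hoxa3, 0.41, SE 0.35 for Hoxa7, 0.28, SE 0.27 for Hoxaas2 and -0.15, SE 0.22 for Hoxa4. With 4 residual degrees of freedom, 0 genes were called there by limma, with a smallest adjusted p of 0.445, while 1441 genes (10.9%) had an unadjusted p under 0.05 against 661 by the threshold alone. Of the genes called between the groups, 311 of the 325 higher and 445 of the 457 lower had a slope of the same sign, 95.7% and 97.4%, against 77.2% of all genes tested.

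After the HoxA genes, the largest called rise was that of Tnc. Tnc, the matrix protein tenascin C of radial glia and gliomas, had 8.47, 10.4 and 11.6 as lowest, median and highest values in Hoxa5-high tumours and 3.56, 7.05 and 8.56 in Hoxa5-low tumours. The groups overlapped by a small margin, BC74C replicate 8 of the low group being above ZNF668 replicate 1 of the high group (difference 2.69, SE 0.57, limma adjusted p = 0.0308). Mfap2, a protein of elastic microfibrils, followed (2.30, SE 0.42, limma adjusted p = 0.0219), with 6.18, 7.68 and 8.58 in Hoxa5-high against 4.29, 5.52 and 6.69 in Hoxa5-low tumours. Ddr2, a collagen receptor (2.18), Emilin1, an elastic fibre glycoprotein (1.99), and Adam12, a metalloprotease (1.92), rose too.

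Among transcription factors and regulators outside the Hox clusters, Tbx18, a factor of mural and mesenchymal progenitors, rose by 1.98 and Tbx4, a T-box factor of limb and lung mesenchyme, by 1.85. Hmga2, a chromatin protein of embryonic and tumour cells, rose by 1.90. The others of the 15 largest called differences were Pdgfrl (2.05), Chst7, a sulfotransferase (2.04), Uty, a Y-linked histone demethylase (2.03), and Traf4, a signalling adaptor (1.86), with limma adjusted p of 0.0287 to 0.0490 over all 10 genes named after Mfap2 and up to here. Among mesenchyme and fibroblast genes 2 of 15 tested were called higher and 0 lower, beside 2.46% and 3.46% of all genes tested. These 2 were Tbx18 and Col5a1, a fibrillar collagen chain. Of the 15 differences 13 were positive and 2 negative, those of Thy1 (-1.82) and Col6a1 (-0.06), neither of them called. Col5a1 had 7.24, 7.75 and 7.97 in Hoxa5-high tumours against 5.07, 6.44 and 6.93 in Hoxa5-low tumours, with no overlap (difference 1.52, SE 0.25, limma adjusted p = 0.0196). By group means, other probe sets rose less for Ddr2 (0.64), Tbx4 (0.71) and Col5a1 (0.08 to 0.81). For Tnc, Tbx18, Uty, Adam12, Hmga2 and Traf4 they rose by 1.25 to 3.18. The median difference of the mesenchyme and fibroblast list was 0.65, against 0.02 for all genes tested.

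**Figure D2:**
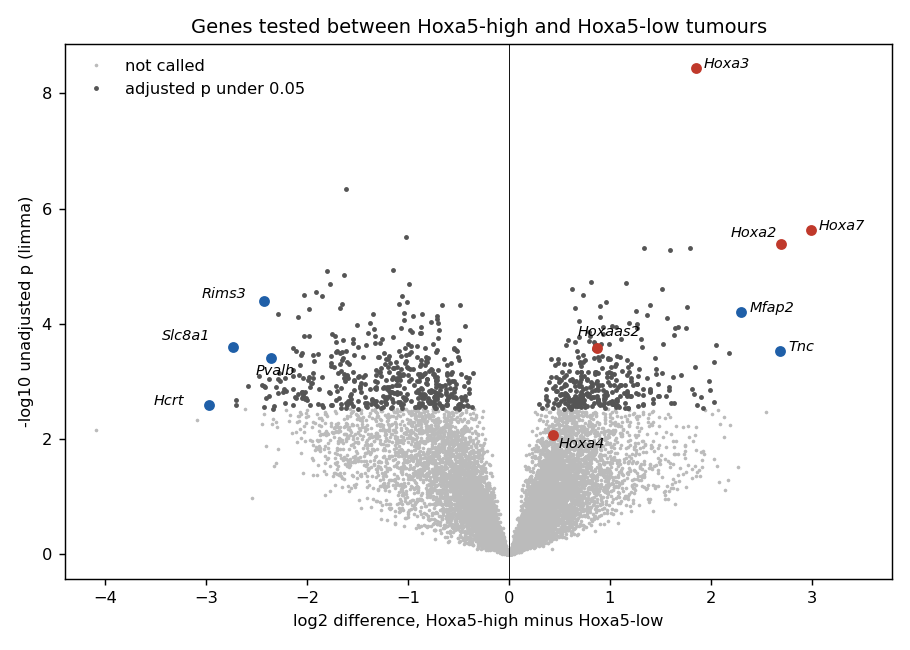
Each of 13217 tested genes by its log2 difference (x axis, Hoxa5-high minus Hoxa5-low, class gene as covariate) and its unadjusted limma p as -log10 (y axis), with called genes dark, Hox genes red and other named genes blue. Hoxa3, Hoxa7 and Hoxa2 stand at the upper right, Hoxa4 is below the threshold, and Hcrt, Slc8a1, Rims3 and Pvalb lie at the left.

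Rims3, a protein of presynaptic release sites, had 4.96, 6.08 and 6.92 in Hoxa5-high tumours and 7.38, 8.37 and 9.95 in Hoxa5-low tumours, without overlap (difference -2.42, SE 0.42, limma adjusted p = 0.0205). Slc8a1, a sodium and calcium exchanger (-2.74), Slc17a6, the vesicular glutamate transporter of subcortical neurons (-2.70), and Calb2, the interneuron protein calretinin (-2.71), also fell. So did Pnoc, the precursor of nociceptin (-2.58), Kcnc2, a potassium channel of fast-spiking neurons (-2.47), and Pvalb, their calcium buffer (-2.35). The receptors Trhr (-2.45), Tacr3 (-2.43) and Glra2 (-2.37), and Tenm2 (-2.42), Zdbf2 (-2.41), Resp18 (-2.41) and Faim2 (-2.38) complete the set with 1 exception, Hcrt. Limma adjusted p for these 13 genes after Rims3 ran from 0.0297 to 0.0482. All of them fell more among ZNF668 (5 against 2) than BC74C tumours (3 against 3), as for Slc17a6 (-4.27 and -1.21) and Pvalb (-2.90 and -1.84). That gap between class genes was not called for any of them. By group means, other probe sets fell for Slc17a6 (-1.75) and Faim2 (-1.69) but little for Trhr (-0.13) and Tacr3 (-0.21). They ran from -1.85 to 0.06 for Slc8a1 and from -2.29 to -0.18 for Tenm2.

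Hcrt, the precursor of the hypothalamic peptide orexin, had the lowest called difference, -2.97 (limma adjusted p = 0.0468), but not as a shift of the group. It had 10.9 and 10.8 in the 2 Hoxa5-low ZNF668 tumours and lay between 4.51 and 4.91 in the other 6 Hoxa5-low tumours, within the 4.34 to 5.05 of the 8 Hoxa5-high tumours. Among the tumours ranked between, Hcrt was also high in ZNF668 replicate 4 (9.98) and RAB3A replicate 4 (8.62), and from 4.55 to 5.63 in the rest. High Hcrt was thus not particular to Hoxa5-low or to ZNF668 tumours. Between the groups the Hcrt difference was 0.07 among BC74C tumours and -6.16 among ZNF668 tumours. Hcrt is the 1 gene whose effect differed between these class genes in a test of the difference itself (6.22, BC74C minus ZNF668, while 1196 genes had an unadjusted p under 0.05).

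Cell type lists describe what moved with these genes. Over all genes tested, 2.46% were called higher and 3.46% lower, and the median difference was 0.02. Members of a list are not independent of each other, so a list with differences of 1 sign is described and not tested. Of 18 mature neuron genes tested, 0 were called higher and 1 lower, the glutamate receptor subunit Gria2 (-0.68), yet all 18 differences were negative, with a median of -1.25. The mean of this list ran from 6.62 to 9.39 in Hoxa5-high tumours and from 7.15 to 10.14 in Hoxa5-low tumours. All 8 Hoxa5-high tumours lay below all Hoxa5-low tumours but 1, BC74C replicate 9 at 7.15. All 11 mature oligodendrocyte genes were likewise negative and 0 were called (median -1.53, with Aspa at -2.01 and Ermn at -2.34), and their mean ran from 5.76 to 8.40 against 6.96 to 10.51. In bulk tissue, fewer cells of a type and less RNA per cell cannot be told apart.

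Genes of radial glia and neural stem cells were all 17 positive with a median of 0.91. Of these, 3 were called higher, beside 2.46% of all genes tested: Tnc, the intermediate filament gene Nes (1.48) and the receptor Notch1 (1.20). All 22 cell cycle genes were positive with a median of 1.69, but 0 were called, and their mean overlapped widely, from 5.59 to 9.31 in Hoxa5-high and from 4.92 to 8.74 in Hoxa5-low tumours. Of 7 neuronal progenitor genes tested, 1 was called higher and 1 lower, beside 2.46% and 3.46% of all genes tested. Sox11, a factor of immature neurons and gliomas, rose (1.40) and the neuronal tubulin Tubb3 fell (-1.75). The list had 2 positive and 5 negative differences, with a median of -0.57. Oligodendrocyte progenitor (median 0.81), astrocyte (0.44), pericyte (0.47), microglia (-0.19), T and NK cell (-0.16), choroid plexus (-0.24), red blood cell (-0.01), interferon and antigen presentation (0.49), hypoxia (0.35), mesenchymal glioma (0.73) and Cdk inhibitor genes (0.70) gave 0 calls. Ependymal and motile cilia genes gave 0 higher and 1 lower of 12, the axonemal gene Ccdc40 (-0.52), with a list median of -0.22. Endothelial genes gave 0 higher and 1 lower of 14, beside the same shares, with a median of -0.30. The 1 gene was the receptor Tek (-1.06), which lost its call in 12 of those fits. Nothing particular to either list is read from these counts.

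**Figure D3:**
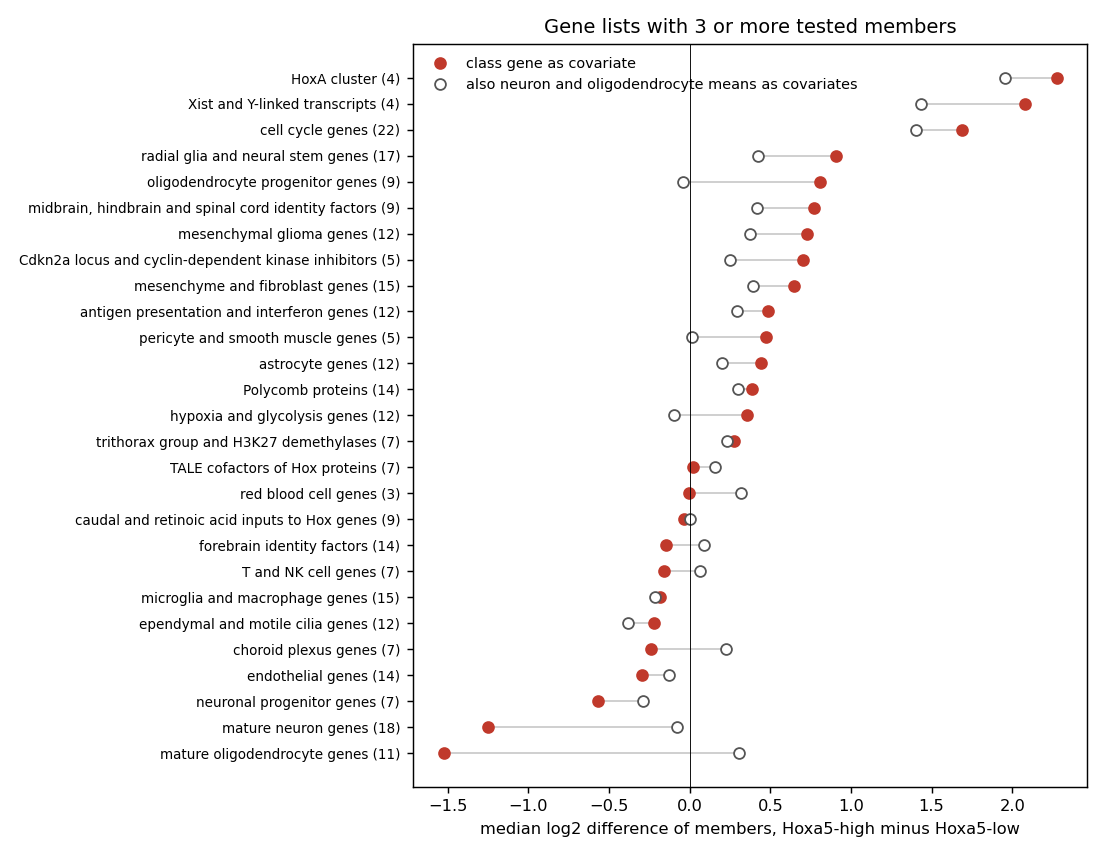
Median log2 difference (x axis, Hoxa5-high minus Hoxa5-low) of the tested members of each gene list (y axis, number of members in brackets), with the class gene as covariate (filled) and with the means of the mature neuron and oligodendrocyte lists added (open). The HoxA median stays at 1.95 of 2.28 and the cell cycle median at 1.40 of 1.69, while the neuron and oligodendrocyte medians, whose list means are the added covariates, are -0.08 and 0.30.

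Among regulators known to act on Hox genes, the Polycomb proteins, which keep the clusters silent in the forebrain, gave 2 called higher and 1 lower of 14, beside 2.46% and 3.46% of all genes tested. The trithorax, TALE and caudal and retinoic acid lists gave 0 calls, so nothing particular to these regulators is read from that count. Rnf2, the ubiquitin ligase of Polycomb complex PRC1, rose by 0.60 and its partner Bmi1 by 0.49. Ezh1, a histone methyltransferase of complex PRC2, fell without overlap, with 6.63, 7.32 and 7.80 in Hoxa5-high tumours against 7.94, 8.07 and 8.60 in Hoxa5-low tumours (difference -0.75, limma adjusted p = 0.0449). The 7 trithorax and H3K27 demethylase genes were all positive with a median of 0.27 and 0 calls. The TALE cofactors that bind DNA with Hox proteins gave 0 calls of 7 (Meis1 1.07, Pknox1 0.50, Pbx3 -1.21), and caudal and retinoic acid genes, upstream of Hox genes in the embryo, 0 of 9.

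Regional identity factors gave 0 calls as well. Forebrain factors had a median of -0.14 over 14 genes, with Emx2 at 1.23 and Pax6 at 0.81 but Dlx1 at -1.57 and Six3 at -1.43, and midbrain, hindbrain and spinal cord factors a median of 0.77 over 9, with En1 at 1.03 and Irx3 at 0.99. For the labelled tissue, Slc17a7, the glutamate transporter that marks cortical excitatory neurons, averaged 4.58 ± 1.38 in Hoxa5-high and 6.09 ± 1.75 in Hoxa5-low tumours (SD, n = 8 each; difference -0.73, SE 0.81, not called). Its median was 4.02 in Hoxa5-high and 6.25 in Hoxa5-low tumours, so this marker was at a low value in most Hoxa5-high tumours. Of the class genes' mouse transcripts none was called, with Rab3a at -1.43, Bcl7c, a candidate for BC74C, at 0.70 and Zfp668, the orthologue of ZNF668, at 0.30.

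Of 4 sex-linked transcripts tested, 1 was called higher and 0 lower, beside 2.46% and 3.46% of all genes tested. The mean of the Y-linked Eif2s3y, Kdm5d and Uty ran from 6.85 to 8.18 in Hoxa5-high tumours and from 3.01 to 7.18 in Hoxa5-low tumours, and 7 of 8 Hoxa5-high tumours lay above every Hoxa5-low tumour. Uty was called (2.03), while Kdm5d (2.14, limma adjusted p = 0.0541) and Eif2s3y (2.13, adjusted p = 0.0716) were not, although Eif2s3y did not overlap. Xist, which female cells make from their silenced X, averaged 10.27 ± 0.55 in Hoxa5-high and 11.29 ± 0.78 in Hoxa5-low tumours (SD, n = 8 each; difference -0.86, not called), so transcripts of both kinds were measured in the same tumours.

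**Figure D4:**
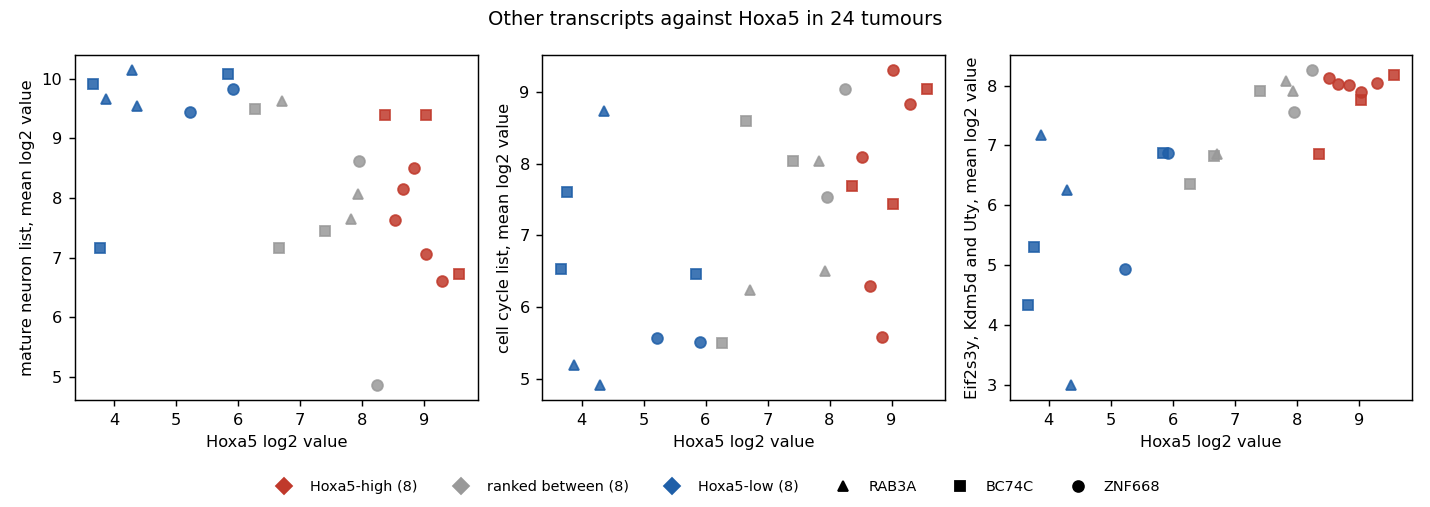
Mean log2 values (y axes) of the mature neuron list, the cell cycle list and 3 Y-linked transcripts against the Hoxa5 log2 value (x axes), 1 point per tumour, coloured by Hoxa5 rank and shaped by class gene. BC74C replicate 9 is the low-Hoxa5 square at a neuron mean of 7.15, and BC74C replicates 4 and 5 are the high-Hoxa5 squares at 9.38 and 9.39.

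The comparison was repeated with the neuron and oligodendrocyte means, or the Y-linked mean, as covariates. The neuron mean averaged 7.93 ± 1.11 in Hoxa5-high and 9.47 ± 0.97 in Hoxa5-low tumours, the oligodendrocyte mean 7.56 ± 0.81 and 8.45 ± 1.20, and the Y-linked mean 7.86 ± 0.43 and 5.60 ± 1.46 (SD, n = 8 each; not tested). With the neuron and oligodendrocyte means added, 1 gene (0.00757%) was called higher and 0 lower, at 1184 genes with an unadjusted p under 0.05, and that gene was Hoxa3 (2.03, SE 0.20, limma adjusted p = 0.00116). With the Y-linked mean added, 1 gene (0.00757%) was again called, and again Hoxa3 (2.02, limma adjusted p = 0.00118). In the fit with neuron and oligodendrocyte means the differences of Hoxa7 (3.15) and Tnc (3.22) were as large as without it, and those of Hoxa2 (1.87) and Hoxaas2 (0.64) smaller, with none of these called. Over all called genes the direction stayed the same for 325 of 325 and 457 of 457. These genes were selected as called in the same tumours, so the kept direction is not separate support. Their median difference was 0.58 against 0.88 without these covariates for genes called higher. For those called lower it was -0.69 against -1.11. Hoxa3 was also the 1 gene called when the tumour type was a covariate (1.85, limma adjusted p = 0.0127) and when the 6 highest were set against the 6 lowest (1.85, limma adjusted p = 0.0195).

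**Figure D5:**
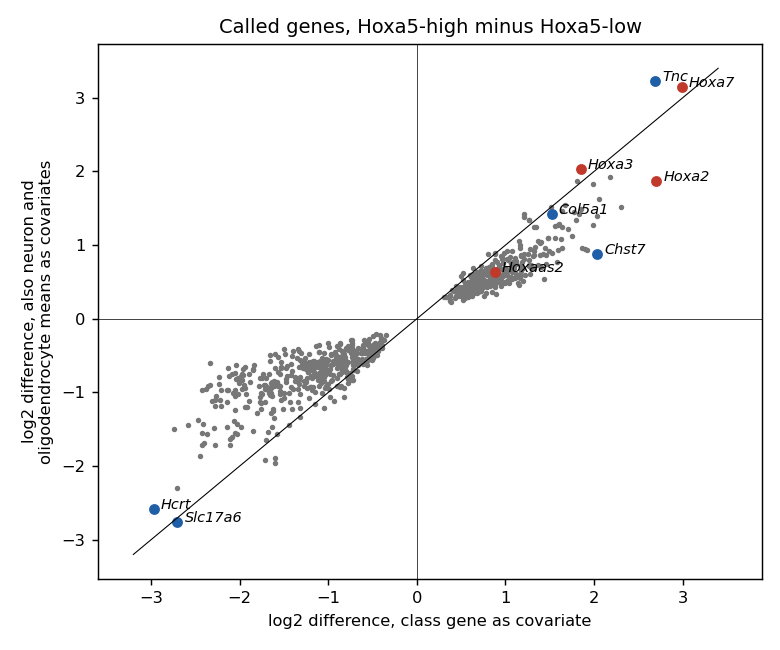
Log2 difference (Hoxa5-high minus Hoxa5-low) of each of the 782 called genes with the class gene as covariate (x axis) and with the neuron and oligodendrocyte means added (y axis), the diagonal marking equal values. Hoxa3, Hoxa7 and Tnc lie at or above the diagonal, Hoxa2 and Chst7 lie below it, and no gene changes sign.

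The number of calls rested on single tumours. Leaving out 1 tumour at a time, 10 of 16 fits made fewer calls by over 1.5 times, with 2 to 120 genes higher and 2 to 173 lower. These were the fits without BC74C replicates 6, 7 and 8 and ZNF668 replicates 1, 2, 3, 5, 6, 8 and 9. Without ZNF668 replicate 9 the 2 higher genes were Hoxa3 and Hoxa7, and the 2 lower were Hapln1 and Il12b. Without BC74C replicate 9, the low-Hoxa5 tumour with the low neuron mean, 1354 genes were higher and 1779 lower, and more were also called without BC74C replicate 4 (607 and 1026), BC74C replicate 5 (570 and 885) or RAB3A replicate 5 (493 higher). Hoxa3 and Hoxa7 were called in all 16 of these fits and Hoxa2 in all but 1, while Hoxaas2 lost its call in 6 (highest limma adjusted p = 0.155). These fits share most of their tumours, so the counts are not separate support. Without the 4 tumours labelled UNKNOWN, a choice made after seeing the data, 2 genes were higher, Hoxa3 and the collagen receptor Ddr2, and 6 lower.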

How the data were processed

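RNA of 24 cortical tumours was labelled with biotin and hybridised to single-colour Affymetrix arrays, per the labels' protocols. The authors deposited 1 table of log2 values for 45141 probe sets, made with Partek 6.6 per the submitters' processing notes. Background correction, normalization and summarisation are not given in the sources used here. That the deposited values are log2 was read from their range, 2.40 to 13.85, with array medians of 4.98 to 5.19. Signal over background was not assessed, and the number of arrays limits the precision (median standard error 0.23).

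Probe sets with 1 gene symbol (28898; 551 had several, 15588 none and 104 were controls) gave 17097 genes, each by its probe set with the highest mean. Names follow the platform annotation, and 28689 probe sets matched a RefSeq table (GRCm38.p6). Genes below the 30th percentile of probe set means (3.76) were left out, as was Hoxa5, leaving 13217. Limma 3.58.1 in R 4.3.3 (lmFit, eBayes with an intensity trend) was fitted with the class gene as covariate and 12 residual degrees of freedom. Genes were named from all measured Hox genes and the 15 largest and 15 smallest called differences, passing over clone and prediction names. For each of 31 lists (401 genes, 349 measured, 285 tested) the candidates were the 2 highest and 2 lowest members by moderated t. Only some of these list members are printed in the text. Notch1 is named beside the count of its list. The members and lists were chosen with earlier results of these data known. Replicate numbers follow the order of deposit. The fit was tested on simulated data for Hoxa5-high minus Hoxa5-low: of 200 genes changed among 13217 it recovered 56% of those changed by 1 and 82% of those changed by 2, with 4 false calls. Tables and figures used Python 3.11.15, pandas 2.3.3 and matplotlib 3.10.9.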

Additional observations from a re-analysis of the deposited data

Results flagged for a closer look

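Single tumours stood apart from the other 7 of their group, by a gap to the nearest of them above Dixon's 95% value for 8 samples, in 22 of 132 tests, and chance flags about 1 in 20. Among Hoxa5-high tumours, BC74C replicate 5 was low for Hoxa2 (5.04), the mesenchymal glioma list (7.60) and the Cdk inhibitor list (7.10). BC74C replicate 4 was low for Uty (5.51) and the sex-linked list (7.75). BC74C replicate 6 was low for the oligodendrocyte list (5.76). ZNF668 replicate 8 was high for Tbx18 (9.38) and the choroid plexus list (5.67). ZNF668 replicate 6 was high for Hoxb4 (4.10) and the microglia list (9.42) and low for the Polycomb list (8.01).

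Among Hoxa5-low tumours, BC74C replicate 9 was low for Tenm2 (7.44), Pvalb (6.83) and the neuron list (7.15). ZNF668 replicate 9 was high for the pericyte list (6.71) and the endothelial list (8.43) and low for the astrocyte list (7.56). RAB3A replicate 5 was high for the caudal and retinoic acid list (5.12), the T and NK cell list (4.95), the choroid plexus list (7.71) and the hypoxia list (8.84). BC74C replicate 7 was low for the hindbrain list (3.82). For Hcrt the Hoxa5-high minus Hoxa5-low difference was 0.07 in BC74C and -6.16 in ZNF668 tumours, a signed gap of 6.22 in the test of that difference, which rests on 2 ZNF668 tumours with high values.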

How the results depend on the processing

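The called genes kept their sign in every alternative fit, apart from under 1% of them with the mean of all probe sets of a gene (99.9% kept). They were selected as called in these same tumours, so the kept sign is not separate support. The number of calls did not hold. Against 325 higher and 457 lower, more were called with no class gene covariate (1146 and 1246), the title prefix as a block (786 and 1066), the 12 highest against the 12 lowest (990 and 1034), and array weights (2084 and 2552). The highest against the lowest tumours ranked within each class gene called 566 higher, and a slope over 24 tumours 563. With no filter on low values 194 were higher. Few were called with the tumour label (1 and 0), with the neuron and oligodendrocyte means (1 and 0), with the Y-linked mean (1 and 0), or with the 6 highest against the 6 lowest (1 and 0). Of alternatives chosen after seeing the data, leaving out the tumours labelled UNKNOWN gave 2 and 6, the neuron mean alone as a covariate 2 and 2, and the cell cycle mean 18 and 10. Leaving out each tumour in turn gave 2 to 1354 higher and 2 to 1779 lower. The cause of these changes was not tested.

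In the 8 tumours ranked between, 0 genes were called also with no filter, no class gene covariate or quantile normalization, all chosen after seeing the data. Hoxa3 was called in 36 of 37 alternatives, Hoxa7 in 32 and Hoxa2 in 30. The alternatives reuse the same tumours, so such counts describe the fits and are not separate support. With the main filter, Hoxa3 was tested only through its values outside the Hoxa5-low tumours. A filter at the 50th percentile leaves out Hoxa3 and Hoxaas2, whose means are lower. Ranking by the mean of all Hoxa5 probe sets gives the same order, since there is 1. No paired analysis was possible because the labels give no replicate numbers.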

Other observations

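The genes in the next sentences were chosen after their values were seen. Gm15050, a non-coding RNA within the span of Hoxa3, averaged 7.10 ± 0.46 in Hoxa5-high and 5.79 ± 0.47 in Hoxa5-low tumours (SD, n = 8 each) and was called higher (1.32, limma adjusted p = 0.0297). On the far side of Hoxa13 the first tested neighbours, Hibadh (0.03) and Tax1bp1 (-0.10), were not called.

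Hapln1, a link protein of the matrix around neurons, was called lower (-1.61, SE 0.19, limma adjusted p = 0.00296), and in 31 of 37 alternatives. In the imprinted Prader-Willi region of chromosome 7, Mkrn3 (1.80, limma adjusted p = 0.00873) and its neighbour Peg12 (1.77, limma adjusted p = 0.0205) were called higher without overlap. Mkrn3 averaged 5.66 ± 0.57 in Hoxa5-high and 3.91 ± 0.44 in Hoxa5-low tumours, and Peg12 5.63 ± 0.78 and 4.06 ± 0.28 (SD, n = 8 each). Magel2 (-1.55), Ndn (-1.37), Snurf (-1.30) and Snrpn (-1.28), which lie in the same region and are also expressed from the paternal copy, had differences of the opposite sign and were not called. A non-coding transcript between them, B230209E15Rik, was called lower (-1.67, limma adjusted p = 0.0490).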
